A study of Mus musculus with 6 samples.

Results

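The genes described here are those of the core Wnt signaling pathway: the Wnt ligands, their Frizzled receptors and Lrp co-receptors, the secreted Sfrp and Dkk antagonists, the Dishevelled proteins, and beta-catenin with its destruction complex. They were taken by gene symbol alone, and 48 of the 53801 genes in the deposited table matched. They comprise 19 Wnt genes, 10 Fzd genes, Lrp5 and Lrp6, 4 Sfrp genes, 4 Dkk genes, 3 Dvl genes, and the 6 genes Axin1, Axin2, Apc, Gsk3a, Gsk3b and Ctnnb1. The study compared, by RNA-seq, brain tissue of 3 Bahd1-KO mice (Bahd1-/-, both copies of Bahd1 inactivated in every cell) with that of 3 Bahd1-WT mice (Bahd1+/+), with 1 frozen hemisphere from each mouse. All 6 mice were of the C57BL/6 strain and about 70 weeks old, and no treatment was given to either group. Bahd1 encodes a protein that acts in heterochromatin formation and gene repression, and the comparison asks which genes change in an adult brain that lacks it. Since the study describes loss of part of the Bahd1-null pups around birth, the adult Bahd1-KO mice are animals that survived it.

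Wnt proteins are secreted lipid-modified glycoproteins that bind a Frizzled receptor together with the co-receptor Lrp5 or Lrp6. In the absence of a Wnt signal, a complex of Axin, Apc and the kinase GSK3 marks beta-catenin for degradation, and when a Wnt binds, Dishevelled proteins relay the signal, the complex is inhibited and beta-catenin enters the nucleus to activate target genes with TCF/LEF factors. Sfrp proteins bind Wnts outside the cell, and Dkk proteins block the Lrp co-receptors. In the adult brain the pathway is known for roles in synapses, in the blood-brain barrier and in the production of new neurons.

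Some paralogs in this family encode closely related proteins with a different base composition, a property that the differences described below were related to, and the size of that difference varies from pair to pair. The pairs Gsk3a and Gsk3b, and Lrp5 and Lrp6, were chosen for that difference, and show it in stretches of 90 bases that encode the same 30 amino acids. The sequences are from the GENCODE M21 transcripts of the mouse build GRCm38, in the direction of the transcript, and capitals mark G and C. Gsk3a and Gsk3b differed at 14 of the 90 positions, 12 of which were at the third base of a codon, and Lrp5 and Lrp6 differed at 20 positions, 17 of them at the third base of a codon.
Gsk3a, chr7:25231651-25231740, minus strand, exon 6: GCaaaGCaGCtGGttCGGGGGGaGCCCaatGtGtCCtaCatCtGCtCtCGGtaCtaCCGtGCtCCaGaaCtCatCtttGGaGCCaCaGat
Gsk3b, chr16:38191529-38191618, plus strand, exon 6: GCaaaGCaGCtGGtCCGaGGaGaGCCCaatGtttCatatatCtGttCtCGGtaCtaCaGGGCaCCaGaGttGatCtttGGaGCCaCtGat
Lrp5, chr19:3630145-3630234, minus strand, exon 6: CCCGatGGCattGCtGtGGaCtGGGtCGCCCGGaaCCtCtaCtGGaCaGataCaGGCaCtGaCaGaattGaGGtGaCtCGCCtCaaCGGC
Lrp6, chr6:134507357-134507446, minus strand, exon 6: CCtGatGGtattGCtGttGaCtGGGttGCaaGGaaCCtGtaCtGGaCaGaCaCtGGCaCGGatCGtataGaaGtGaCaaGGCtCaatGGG
The stretch held 50 G or C bases in Gsk3a and 45 in Gsk3b, and 53 in Lrp5 and 46 in Lrp6. Over the whole coding sequence, G or C stood at the third base of 65.9% of the codons of Gsk3a and 46.4% of those of Gsk3b. For Lrp5 and Lrp6 the shares were 72.9% and 51%.

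The libraries held 42297150 to 93557948 counts per mouse, and 3 counts, taken as the smallest level that could be seen, corresponded to 0.0315 to 0.0690 CPM, the unit of level used throughout (a gene's counts relative to the library's total after TMM scaling). The targeted gene was counted 1383, 844 and 1099 times in Bahd1-WT replicates 1, 2 and 3 and 0, 14 and 1 times in Bahd1-KO replicates 1, 2 and 3, as their labels give it. Markers of neurons, astrocytes, oligodendrocytes and microglia were found in all 6 samples. Summed levels of 2 marker lists were higher in every Bahd1-KO than in every Bahd1-WT mouse: choroid plexus, 287 to 382 CPM against 467 to 1088 CPM, and ependymal cells, 13 to 14.9 CPM against 18.8 to 36.4 CPM. Of the 6 choroid plexus markers 1 was higher and 1 lower at an unadjusted p under 0.05, and of the 5 ependymal markers 3 were higher. The summed oligodendrocyte markers overlapped between the groups, at 3620 to 3999 CPM in the Bahd1-WT mice and 3940, 6798 and 5660 CPM in Bahd1-KO replicates 1, 2 and 3, and 3 of the 5 were higher at an unadjusted p under 0.05, with a median log2 FC of 0.70, and 0.39 with the offset. Summed astrocyte markers were lower in the Bahd1-KO mice (1700 to 1969 CPM against 2010 to 2241 CPM), as were dentate gyrus markers (50.3 to 60.4 CPM against 65.8 to 70.4 CPM) and meningeal markers (73.8 to 81.0 CPM against 81.4 to 88.3 CPM). By single markers, 2 of the 5 astrocyte markers were higher and 1 lower at an unadjusted p under 0.05, and 1 was higher and 1 lower in each of the dentate gyrus and meningeal lists. Lung markers were at 114, 27.1 and 2.43 CPM in Bahd1-WT replicates 1, 2 and 3 and at 0.552 to 1.43 CPM in the Bahd1-KO mice, and all 6 of them were lower at an unadjusted p under 0.05. None of the markers found was at 3 counts or fewer in all 6 samples. The part of these differences in the levels of Wnt pathway genes was not tested, and in whole tissue fewer cells of a type and less RNA per cell cannot be told apart.

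No Wnt pathway gene met the study's thresholds of an adjusted p under 0.05 and a 2-fold change in edgeR's quasi-likelihood test with Benjamini-Hochberg adjustment over 23975 genes, where 2 genes in all did (0.00834%). Of the 48 genes, 44 had the 10 counts over the 6 mice needed for the test, and 20 of these had an unadjusted p under 0.05. In the Bahd1-KO mice, 17 of the 20 were higher (19.9% of all genes tested were) and 3 were lower (12% of all genes). At an adjusted p under 0.1, 11 were higher (14.7% of all genes) and 0 were lower (4.77% of all genes): Wnt4, Wnt5b, Wnt7b, Wnt9a, Fzd9, Fzd10, Lrp5, Dvl1, Dvl3, Axin1 and Gsk3a. The median log2 fold change (log2 FC) of the 44 genes was 0.48, against -0.06 over all genes tested. The groups did not overlap in 14 genes that were higher in every Bahd1-KO mouse (20.6% of all genes) and in 5 that were lower in every Bahd1-KO mouse (19.3% of all genes).

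DESeq2, the study's own tool, was run here with its normal prior, which the paper does not mention. It called 8 Wnt pathway genes higher (9.61% of all genes) and 0 lower (0.909% of all genes): Wnt4, Wnt5b, Wnt7b, Fzd9, Fzd10, Lrp5, Dvl1 and Dvl3. All 8 had a GC content of at least 55% over their transcripts. In that class 8 of the 24 tested Wnt pathway genes and 1996 of the 4718 tested genes of the whole table were called higher. The number of Wnt pathway genes called higher was 8 also with DESeq2 without its prior (10.5% of all genes), with edgeR's likelihood-ratio test (10.8%) and with edgeR and no filter beyond 1 count (7.58%), and it was 6 with total counts in place of TMM factors (7.88%) and 14 without Bahd1-KO replicate 1 (14.6%).

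**Figure D1:**
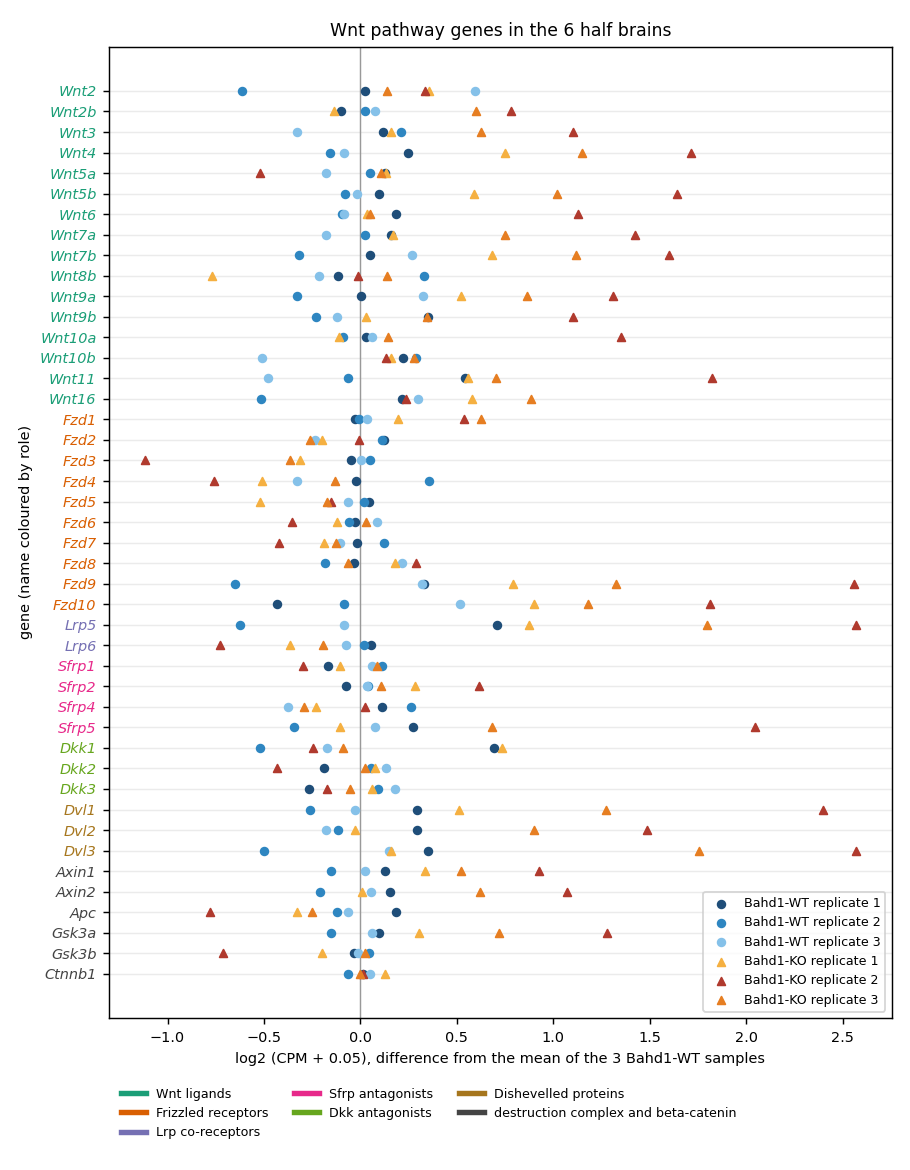
Level of the 44 tested Wnt pathway genes in each of the 6 mice, 1 gene per row with its name colored by role. The x axis is log2 (CPM + 0.05) minus the mean of the 3 Bahd1-WT mice, circles are Bahd1-WT and triangles Bahd1-KO mice; Bahd1-KO replicate 2 (dark red) is the rightmost point in 23 of the 44 genes and the leftmost in 10.

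The log2 FC of the Wnt pathway genes was related to the GC content of their transcripts. Among the 24 tested genes with a GC content of 55% or more, 22 had a log2 FC above 0, with a median of 0.86, while the 4718 tested genes of the whole table in that class had a median of 1.08. The 9 genes between 50% and 55% had a median log2 FC of 0.05 (0.28 for all genes of that class). Of the 11 genes under 50%, 10 had a log2 FC below 0, with a median of -0.18 (-0.37 for all genes of that class), and 3 of them were lower at an unadjusted p under 0.05, as were 2752 of the 13137 tested genes of that class. In the class of 55% or more, 15 of the 24 Wnt pathway genes and 3211 of the 4718 genes were higher at an unadjusted p under 0.05. At an adjusted p under 0.1, 11 of the 24 and 2616 of the 4718 were higher. Every Bahd1-KO mouse was above every Bahd1-WT mouse in 13 of the 24 and 2867 of the 4718. Spearman's rho between GC content and log2 FC was 0.754 across the 44 genes and 0.758 across 23940 genes of the table, which is a description across genes that share the same 6 libraries.

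The relation also differed between libraries of the same genotype. Against each gene's mean over the 6 samples, the 24 genes of 55% or more had a median of -0.22, -0.52 and -0.31 (log2) in Bahd1-WT replicates 1, 2 and 3, and of -0.06, 0.98 and 0.36 in Bahd1-KO replicates 1, 2 and 3. The 11 genes under 50% had medians of 0.20, 0.11 and 0.14 in the former and -0.05, -0.47 and 0.08 in the latter. Bahd1-KO replicate 2 stood apart from the other 5: it had the highest level of the 6 in 20 of the 24 GC-rich genes and in 16 of the 17 genes that were higher at an unadjusted p under 0.05, Fzd1 being the exception, and the lowest level in all 3 of those that were lower. By the median of the GC-rich genes, Bahd1-KO replicate 1 lay closer to the Bahd1-WT mice than to Bahd1-KO replicate 2. Without Bahd1-KO replicate 2, 12 Wnt pathway genes were higher (15.5% of all genes) and 1 lower (9.35% of all genes) at an unadjusted p under 0.05, and the median log2 FC was 0.19.

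**Figure D2:**
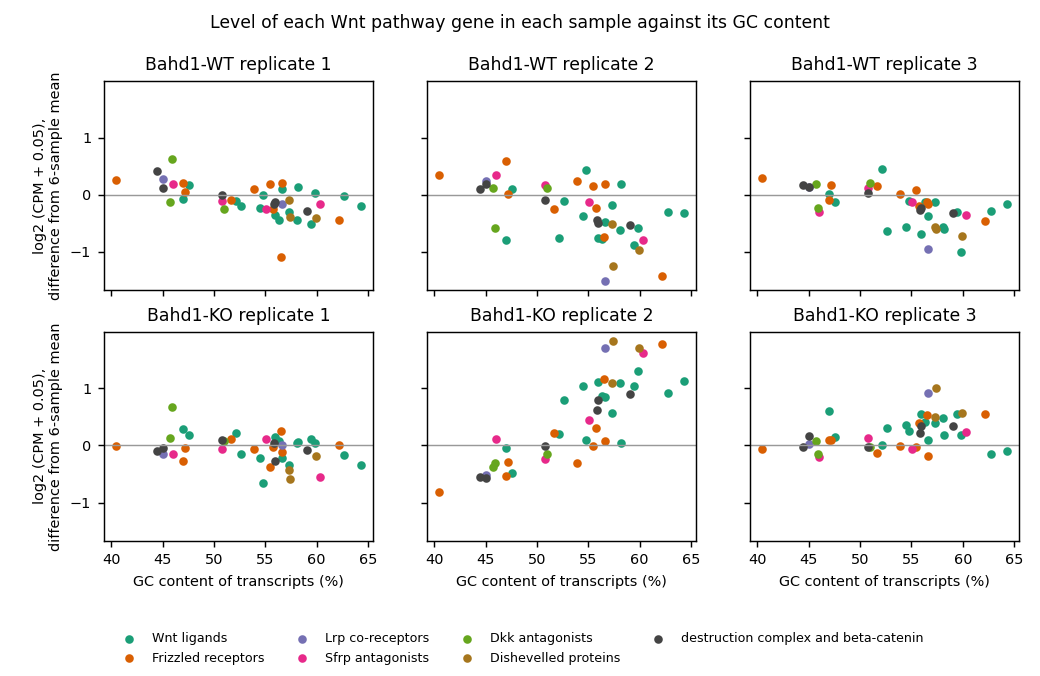
Level of each tested Wnt pathway gene, as log2 (CPM + 0.05) minus the gene's mean over the 6 samples (y axis), against the GC content of its transcripts in percent (x axis), with 1 panel per mouse and points colored by role. Spearman's rho is -0.577, -0.578 and -0.700 in Bahd1-WT replicates 1, 2 and 3, and -0.270, 0.853 and 0.415 in Bahd1-KO replicates 1, 2 and 3.

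The values of most genes below are also given with an offset for GC content and length, a smooth curve of level on GC content and exon length that was fitted in each library to 13250 genes and taken out of the comparison. With the offset, the median log2 FC of the 44 genes was -0.05 (-0.04 over all genes), 3 genes were higher at an unadjusted p under 0.05 (9.63% of all genes) and 11 were lower (11.1% of all genes), and no gene was called (0.0167% of all genes). The groups did not overlap in 3 genes that were higher, Wnt4, Wnt16 and Lrp5 (11.4% of all genes), and in 11 that were lower (13.6% of all genes). The 24 genes of 55% or more then had a median log2 FC of -0.23 (-0.04 for all genes of that class) and the 11 genes under 50% one of 0.07 (-0.04 for all genes of that class), so that among the Wnt pathway genes the offset left a relation with GC content of the opposite sign, and the values with the offset given below are to be read beside it. At an adjusted p under 0.1, Lrp5 was higher (3.32% of all genes), and Wnt6, Wnt10a, Fzd2, Fzd5, Fzd7 and Gsk3a were lower (2.52% of all genes).

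The ligands were expressed at low levels in the adult hemisphere. Of the 19 Wnt genes, 16 were tested, 14 of them had a log2 FC above 0, 7 were higher at an unadjusted p under 0.05 (19.9% of all genes), and the median log2 FC was 0.61. With the offset 5 had a log2 FC above 0 and 11 below, 2 and 5 of these at an unadjusted p under 0.05 (9.63% and 11.1% of all genes), with a median of -0.08. Without Bahd1-KO replicate 2, and without the offset, 4 ligands were higher at an unadjusted p under 0.05 (15.5% of all genes), with a median of 0.35. Wnt4 (chr4:137277489-137299726, plus strand), which signals in kidney, gonad and neuromuscular development, had the smallest p of all Wnt pathway genes. Its level was 7.24, 5.46 and 5.75 CPM in Bahd1-WT replicates 1, 2 and 3 and 10.3, 20.1 and 13.6 CPM in Bahd1-KO replicates 1, 2 and 3, the order used in all sentences that follow. Every Bahd1-KO mouse was above every Bahd1-WT mouse, and the difference was 2.38-fold (log2 FC 1.25 ± 0.28 (SE), adjusted p = 0.0634, n = 3 per genotype). There was still no overlap with the offset (8.47, 8.28 and 7.61 against 10.5, 10.7 and 10.7 CPM), at a log2 FC of 0.39 ± 0.12 (adjusted p = 0.114).

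Wnt7a and Wnt7b act on brain endothelial cells in the formation of the blood-brain barrier, and Wnt7a was the ligand with the highest level per length, 2.67 CPM per kilobase of exon (RPKM) in the Bahd1-WT mice. Wnt7a was at 9.40, 8.55 and 7.43 CPM in the Bahd1-WT mice and 9.47, 22.7 and 14.2 CPM in the Bahd1-KO mice. Wnt7b was at 8.04, 6.22 and 9.35 CPM against 12.5, 23.6 and 16.9 CPM. The groups did not overlap for either gene, although Bahd1-KO replicate 1 barely exceeded the highest Bahd1-WT value of Wnt7a. The log2 FC was 0.87 ± 0.31 for Wnt7a (adjusted p = 0.103; 0.49 without Bahd1-KO replicate 2) and 1.16 ± 0.27 for Wnt7b (adjusted p = 0.0634; 0.90 without Bahd1-KO replicate 2). The offset brought it to 0.18 ± 0.17 and -0.11 ± 0.18, and the groups overlapped for both.

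Wnt5b, a ligand of the branch that does not act through beta-catenin, was at 0.994, 0.875 and 0.914 CPM in the Bahd1-WT mice and 1.42, 3.00 and 1.93 CPM in the Bahd1-KO mice. Wnt9a was at 3.13, 2.48 and 3.93 CPM against 4.50, 7.83 and 5.72 CPM. Wnt11, known for its part in convergent extension movements, was at 0.273, 0.162 and 0.109 CPM against 0.276, 0.735 and 0.311 CPM. In all 3 genes the groups did not overlap, with a log2 FC of 1.20 ± 0.31 for Wnt5b (adjusted p = 0.0634), 0.92 ± 0.28 for Wnt9a (adjusted p = 0.0755) and 1.29 ± 0.50 for Wnt11 (adjusted p = 0.121). With the offset their log2 FCs were -0.00 ± 0.20, -0.00 ± 0.18 and -0.13 ± 0.36. Wnt11 rested on 8 to 70 counts per library, and its log2 FC was 0.67 without Bahd1-KO replicate 2.

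A pair of neighboring ligands of high GC content were lower in the Bahd1-KO mice once the offset was used. At that setting 18 of the 24 Wnt pathway genes with a GC content of 55% or more had a log2 FC below 0. Wnt6 (chr1:74771892-74785322) and Wnt10a (chr1:74791516-74804179) lie 6193 bases apart on the plus strand, and have GC contents of 62.7% and 64.3%. Wnt10a was at 1.80, 1.65 and 1.84 CPM in the Bahd1-WT mice and 1.63, 4.57 and 1.95 CPM in the Bahd1-KO mice, so that only Bahd1-KO replicate 2 lay well above the rest. With the offset, the values became 2.60, 3.52 and 3.35 CPM against 1.67, 1.15 and 1.35 CPM, and every Bahd1-KO mouse was below every Bahd1-WT mouse. The log2 FC of Wnt10a moved from 0.63 ± 0.38 (adjusted p = 0.271; 0.02 without Bahd1-KO replicate 2) to -1.20 ± 0.21 (adjusted p = 0.0759). DESeq2 with its prior and the offset called Wnt10a alone among the Wnt pathway genes, as lower (log2 FC -1.01, adjusted p = 7.83e-05; 0.184% of all genes were called lower). For Wnt6 the values were 0.896, 0.729 and 0.736 CPM against 0.804, 1.77 and 0.812 CPM, and with the offset 1.26, 1.5 and 1.29 CPM against 0.811, 0.493 and 0.570 CPM. Its log2 FC was 0.54 ± 0.35 without the offset (adjusted p = 0.307; 0.04 without Bahd1-KO replicate 2) and -1.15 ± 0.25 with the offset (adjusted p = 0.0759).

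Wnt16 and Wnt3, chosen after their values were seen as were Wnt6, Fzd2, Fzd5, Fzd7, Sfrp5 and Apc, had log2 FCs above 0 at both settings, but neither gene had an unadjusted p under 0.05 at both. Wnt16, whose GC content of 47.0% sets it apart from most ligands, was at 0.382, 0.211 and 0.409 CPM in the Bahd1-WT mice and 0.506, 0.389 and 0.639 CPM in the Bahd1-KO mice. Its log2 FC was 0.59 ± 0.35 (adjusted p = 0.270), and 0.80 ± 0.34 with the offset (adjusted p = 0.211), where the groups no longer overlapped, on 13 to 37 counts per library. Wnt3 was at 6.20, 6.61 and 4.54 CPM against 6.37, 12.3 and 8.84 CPM, with a log2 FC of 0.67 ± 0.28 (adjusted p = 0.146; 0.40 without Bahd1-KO replicate 2) and 0.32 ± 0.21 with the offset (adjusted p = 0.426). Its groups overlapped at both settings. Neighboring Wnt9b lies 24328 bases from Wnt3 on chromosome 11 and had a log2 FC of 0.57, and -0.41 with the offset.

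Among the other ligands, Wnt5a, at 14.6 to 18 CPM in the Bahd1-WT mice, had a log2 FC of -0.07, and 0.11 with the offset. Wnt2, Wnt2b, Wnt8b and Wnt10b were at 0.253 to 3.85 CPM in all 6 mice, and their log2 FCs were 0.20, 0.50, -0.17 and 0.15. The same genes had log2 FCs of -0.06, -0.58, -0.88 and -0.94 with the offset, of which all but that of Wnt2 had an unadjusted p under 0.05. Wnt1, Wnt3a and Wnt8a were not tested. Wnt1 had 4 counts and Wnt3a had 7 counts in Bahd1-KO replicate 2, Wnt3a had 2 counts in Bahd1-KO replicate 3, and both were at 0 counts in the Bahd1-WT mice, which allows up to 3 counts in each. Wnt8a had 1 count in each of Bahd1-WT replicates 1 and 2 and 0 in the other mice.

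The Frizzled receptors, through which Wnts signal, did not share a direction. Of the 10 genes, 4 had a log2 FC above 0 and 6 below, 3 and 1 of these at an unadjusted p under 0.05 (19.9% and 12% of all genes), with a median log2 FC of -0.15. With the offset the median was -0.14, and 0 were higher and 3 lower at an unadjusted p under 0.05 (9.63% and 11.1% of all genes). Fzd3, a receptor known for axon guidance, was the most abundant per length at 13.6 RPKM in the Bahd1-WT mice and had the lowest GC content of all, 40.5%. It was at 168, 180 and 174 CPM in the Bahd1-WT mice and 140, 80.1 and 135 CPM in the Bahd1-KO mice. There was no overlap of the groups, and Bahd1-KO replicate 2 was far below the other 5 (log2 FC -0.56 ± 0.22, adjusted p = 0.124). Offset values were 136, 139 and 146 CPM against 145, 133 and 150 CPM, and the log2 FC was 0.02 ± 0.09.

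Fzd9, Fzd10 and Fzd1 were higher at an unadjusted p under 0.05. Fzd9, a receptor of hippocampal development, has a GC content of 62.2% and was at 1.07, 0.518 and 1.06 CPM in the Bahd1-WT mice and 1.49, 5.19 and 2.18 CPM in the Bahd1-KO mice. Fzd10 was at 0.372, 0.486 and 0.764 CPM against 1.01, 1.95 and 1.24 CPM. Fzd1 was at 15.7, 15.9 and 16.4 CPM against 18.3, 23.2 and 24.7 CPM, the only one of the 3 in which Bahd1-KO replicate 3 was the highest. Every Bahd1-KO mouse exceeded every Bahd1-WT mouse in all 3. The log2 FC was 1.74 ± 0.49 for Fzd9 (adjusted p = 0.0664), 1.39 ± 0.36 for Fzd10 (adjusted p = 0.0642) and 0.46 ± 0.18 for Fzd1 (adjusted p = 0.124). That of Fzd9 was 1.05 without Bahd1-KO replicate 2. With the offset it was 0.04 ± 0.22, 0.40 ± 0.30 and -0.32 ± 0.17, and the groups overlapped in all 3.

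Fzd2, Fzd5 and Fzd7, whose transcripts have a GC content of 53.9% to 56.6%, were lower with the offset and did not pass the test without it. Fzd5 was at 3.46, 3.40 and 3.20 CPM in the Bahd1-WT mice and 2.32, 3.01 and 2.97 CPM in the Bahd1-KO mice. Fzd7 was at 20.9, 23.1 and 19.7 CPM against 18.6, 15.8 and 19.4 CPM. Fzd2 was at 8.41, 8.37 and 6.57 CPM against 6.73, 7.69 and 6.44 CPM. The groups did not overlap for Fzd5 and Fzd7, and overlapped for Fzd2. Without the offset the unadjusted p was 0.194 to 0.447 in the 3 genes, with log2 FCs of -0.28 ± 0.21 for Fzd5, -0.25 ± 0.17 for Fzd7 and -0.16 ± 0.20 for Fzd2. The offset gave groups without overlap in each of them, and log2 FCs of -1.04 ± 0.20 for Fzd5 (adjusted p = 0.0759), -0.73 ± 0.20 for Fzd7 (adjusted p = 0.0940) and -1.07 ± 0.23 for Fzd2 (adjusted p = 0.0759). Fzd4, the receptor of the retinal and brain vasculature, was at 23.5 to 37.7 CPM in the Bahd1-WT mice and 17.4 to 26.9 CPM in the Bahd1-KO mice, with a log2 FC of -0.48, and -0.26 with the offset. Fzd6 and Fzd8 had log2 FCs of -0.14 and 0.13, and 0.06 and -0.03 with the offset.

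The co-receptors Lrp5 and Lrp6, which share the binding of Wnt ligands, had log2 FCs of opposite sign, both at an unadjusted p under 0.05. At that threshold 19.9% of all genes were higher and 12% lower. In the GC class of Lrp5, 55% or more, 3211 of 4718 genes were higher. In that of Lrp6, under 50%, 2752 of 13137 were lower. Lrp5 (chr19:3584828-3686564, minus strand; GC content 56.6%) was at 4.37, 1.70 and 2.5 CPM in the Bahd1-WT mice and 4.90, 16 and 9.33 CPM in the Bahd1-KO mice. The groups did not overlap, Bahd1-WT replicate 1 and Bahd1-KO replicate 1 were close to each other, and the log2 FC of 1.82 ± 0.47 was the largest of the 44 genes (adjusted p = 0.0641). After the offset its values were 5.03, 2.74 and 3.46 CPM against 5.46, 8.01 and 6.53 CPM, and Lrp5 had a log2 FC of 0.83 ± 0.23 (adjusted p = 0.0966), the largest of the 44 genes at that setting too. Without Bahd1-KO replicate 2 its log2 FC was 1.32. Lrp6 (chr6:134446476-134566965, minus strand; GC content 45.0%) was the more abundant of the pair, at 6.29 RPKM against 0.293 RPKM for Lrp5 in the Bahd1-WT mice. It was at 89.4, 87.0 and 81.7 CPM against 66.7, 51.9 and 75.1 CPM, with no overlap (log2 FC -0.41 ± 0.17, adjusted p = 0.143). The log2 FC of Lrp6 with the offset was -0.05 ± 0.09, and the groups overlapped.

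Secreted antagonists did not share a direction. Of the 4 Sfrp genes 2 had a log2 FC above 0 and 2 below. Only Sfrp5 of the 4 had an unadjusted p under 0.05, as higher (19.9% of all genes), and with the offset as lower (11.1% of all genes). None of the 3 tested Dkk genes passed the test (unadjusted p 0.674 to 0.925). Dkk3, a divergent family member that does not bind the Lrp co-receptors as Dkk1 does, was by far the most abundant antagonist at 62.6 RPKM in the Bahd1-WT mice and 59.9 RPKM in the Bahd1-KO mice. It was at 173, 222 and 236 CPM against 217, 185 and 201 CPM, with overlapping groups and a log2 FC of -0.06 ± 0.17 (adjusted p = 0.816), and -0.16 ± 0.13 with the offset. Sfrp1, the most abundant Sfrp gene at 3.63 RPKM, was at 14.1, 17.1 and 16.5 CPM against 14.7, 12.9 and 16.8 CPM (log2 FC -0.10 ± 0.19, adjusted p = 0.729), with a log2 FC of -0.17 ± 0.15 with the offset. Neither gene differed by more than the spread between mice, and both have a GC content near 51%, at 51.0% and 50.8%. Sfrp5 was at 1.99, 1.28 and 1.73 CPM against 1.52, 6.93 and 2.66 CPM, where Bahd1-KO replicate 1 lay within the Bahd1-WT mice and Bahd1-KO replicate 2 far above all others. Its log2 FC went from 1.16 ± 0.50 (adjusted p = 0.151) to -0.47 ± 0.20 with the offset (adjusted p = 0.213), and was 0.33 without Bahd1-KO replicate 2. Sfrp2 and Sfrp4 had log2 FCs of 0.36 and -0.18, and -0.41 and 0.13 with the offset, and the groups did not overlap for Sfrp2 without it. Dkk2 had a log2 FC of -0.12, and 0.18 with the offset. Dkk1, the best known inhibitor of Lrp5 and Lrp6, had 0 to 6 counts per library, and Dkk4 had 1 count in each Bahd1-WT mouse and 0 in each Bahd1-KO mouse and was not tested.

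The 3 Dishevelled genes, which relay the signal from Frizzled, were all higher at an unadjusted p under 0.05, as were 19.9% of all genes and 3211 of the 4718 genes with a GC content of 55% or more, the class to which they belong with GC contents of 57.3% to 59.9%. With the offset 0 of the 3 passed it. Dvl1 (chr4:155847402-155859303, plus strand), the most abundant at 3.48 RPKM in the Bahd1-WT mice and 10.4 RPKM in the Bahd1-KO mice, was at 21, 14.3 and 16.8 CPM against 24.5, 90.5 and 41.5 CPM. Dvl3 was at 7.65, 4.21 and 6.64 CPM against 6.69, 35.7 and 20.3 CPM, and Dvl2 at 6.09, 4.58 and 4.38 CPM against 4.87, 14 and 9.29 CPM. In each gene Bahd1-KO replicate 2 was the highest and Bahd1-KO replicate 1 the lowest of the Bahd1-KO mice, and only for Dvl1 did the groups not overlap. The log2 FC was 1.59 ± 0.42 for Dvl1 (adjusted p = 0.0647), 1.76 ± 0.52 for Dvl3 (adjusted p = 0.0723) and 0.91 ± 0.36 for Dvl2 (adjusted p = 0.129). Without Bahd1-KO replicate 2 it was 0.93, 1.14 and 0.51. With the offset, Dvl1 was at 27.0, 26.8 and 26.9 CPM against 26.2, 32.5 and 28.1 CPM (log2 FC 0.11 ± 0.11), Dvl2 had a log2 FC of -0.20 ± 0.15, and Dvl3 one of 0.57 ± 0.26 (adjusted p = 0.251).

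Among the 6 genes of the destruction complex and beta-catenin, Gsk3a and Axin1 were higher (19.9% of all genes) and Apc lower (12% of all genes) at an unadjusted p under 0.05. Axin2 and Gsk3b, with log2 FCs of 0.62 and -0.27, did not pass it. With the offset 0 were higher (9.63% of all genes) and 2 lower, Axin2 and Gsk3a (11.1% of all genes). Ctnnb1, the gene of beta-catenin, had the highest level of all per length, 87.9 RPKM in the Bahd1-WT mice and 90.8 RPKM in the Bahd1-KO mice. It was at 461, 436 and 473 CPM against 498, 461 and 456 CPM, with a log2 FC of 0.05 ± 0.14 (adjusted p = 0.834) and -0.02 ± 0.09 with the offset, so that its level did not differ by more than the spread between mice at either setting. Gsk3a (chr7:25228258-25237851, minus strand; GC content 59.1%), one of the pair of GSK3 kinases, was at 117, 98.5 and 114 CPM against 135, 266 and 180 CPM. Every Bahd1-KO mouse was above every Bahd1-WT mouse (log2 FC 0.82 ± 0.24, adjusted p = 0.0706). The offset turned the order of the groups, 151, 178 and 176 CPM against 136, 101 and 131 CPM, again with no overlap (log2 FC -0.46 ± 0.13, adjusted p = 0.0971). Gsk3b (chr16:38089001-38246084, plus strand; GC content 45.0%) was at 260, 274 and 264 CPM against 232, 162 and 270 CPM, with overlapping groups (log2 FC -0.27 ± 0.20, adjusted p = 0.358), and its log2 FC was 0.07 ± 0.10 with the offset.

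Axin1, the scaffold of the complex, was at 16.9, 13.9 and 15.7 CPM in the Bahd1-WT mice and 19.5, 29.4 and 22.2 CPM in the Bahd1-KO mice, with no overlap (log2 FC 0.61 ± 0.21, adjusted p = 0.0924). Axin2, a scaffold and itself a widely used target gene of beta-catenin, was at 12.5, 9.72 and 11.7 CPM against 11.3, 23.7 and 17.3 CPM. Bahd1-KO replicate 1 lay among the Bahd1-WT mice for Axin2 (log2 FC 0.62 ± 0.27, adjusted p = 0.157; log2 FC 0.34 without Bahd1-KO replicate 2). With the offset both had groups that did not overlap and were lower, with log2 FCs of -0.21 ± 0.12 for Axin1 and -0.25 ± 0.11 for Axin2 (adjusted p = 0.349 and 0.230). Apc, the large scaffold that holds beta-catenin for phosphorylation, has a GC content of 44.5%, and was at 469, 379 and 395 CPM against 329, 240 and 347 CPM. Its groups did not overlap (log2 FC -0.44 ± 0.18, adjusted p = 0.142), and with the offset they did (log2 FC -0.04 ± 0.10).

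**Figure D3:**
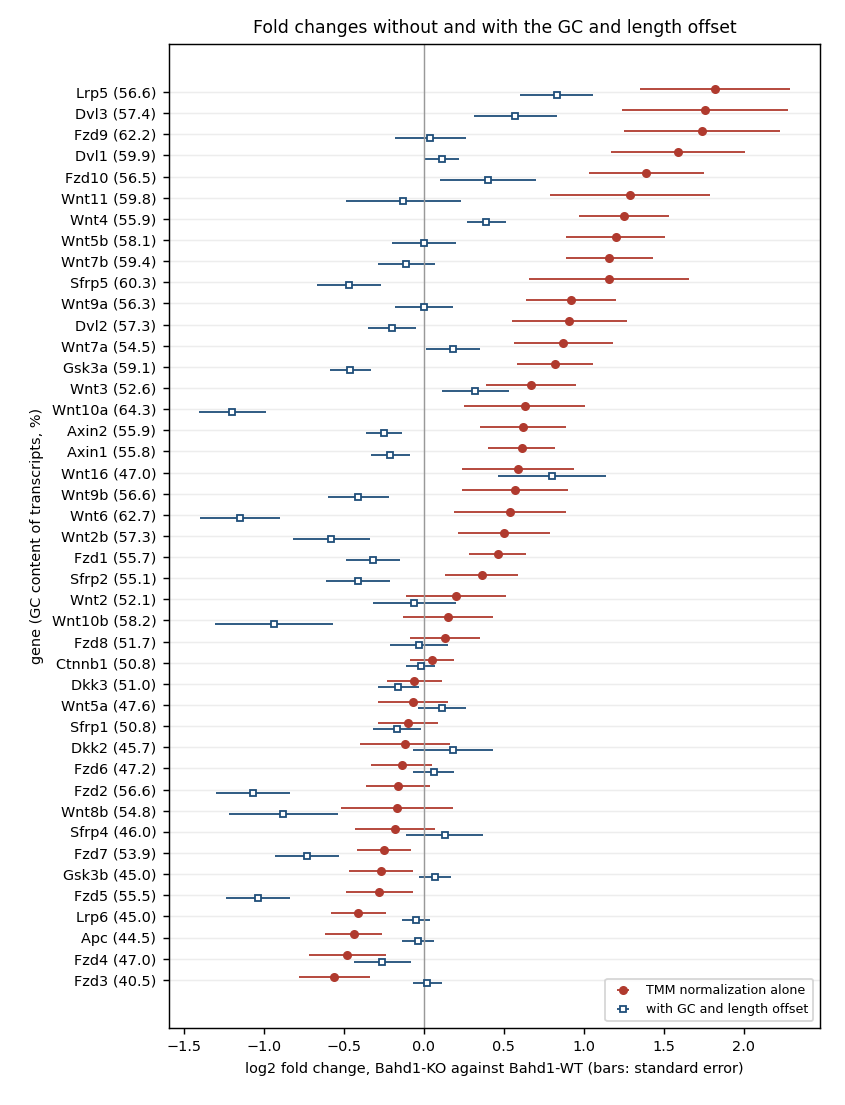
Log2 fold change, Bahd1-KO against Bahd1-WT, of the tested Wnt pathway genes other than Dkk1, which had 0 to 6 counts per library (x axis; bars are standard errors, n = 3 per genotype), with TMM normalization alone (filled circles) and with the GC and length offset (open squares). Genes are ordered by the first value with their GC content in percent behind the name, and the first set spans -0.56 (Fzd3) to 1.82 (Lrp5), the second -1.20 (Wnt10a) to 0.83 (Lrp5).

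Ratios of genes within a library do not depend on its size, and 10 pairs, chosen after values were seen and all paralogs but Dvl1 and Ctnnb1, were compared by an exact two-sided permutation test, in which 3 against 3 mice cannot give a p under 0.1. Lrp5 had 0.0489, 0.0196 and 0.0305 counts for each count of Lrp6 among Bahd1-WT against 0.0734, 0.309 and 0.124 among Bahd1-KO mice, a difference of 2.20 on the log2 scale (exact p = 0.1). With the offset it was 0.92 and the groups still did not overlap. Gsk3a had 0.450, 0.359 and 0.430 counts for each count of Gsk3b against 0.585, 1.64 and 0.668, and per kilobase of exon its level was 1.53, 1.22 and 1.46 times that of Gsk3b against 1.98, 5.57 and 2.26 times, above Gsk3b in all 6 mice. The difference was 1.07 (exact p = 0.1), and -0.53 with the offset, where the groups did not overlap in the opposite direction. These are the pairs whose coding stretches were printed above, with the GC-richer paralog in the numerator.

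In some of the other pairs the groups overlapped and in others they did not. Wnt5b to Wnt5a, with GC contents of 58.1% and 47.6%, differed by 1.22 (exact p = 0.1) and by -0.10 with the offset, and Fzd9 to Fzd3 differed by 2.21 (exact p = 0.1) and by 0.06 with the offset. Apc2 to Apc differed by 2.19 and Dvl1 to Ctnnb1 by 1.35 (exact p = 0.1 for both), and by 0.44 and 0.12 with the offset, where the groups overlapped. Axin2 to Axin1, with GC contents of 55.9% and 55.8%, gave count ratios of 0.744, 0.698 and 0.746 against 0.581, 0.805 and 0.780, a difference of -0.03 (exact p = 1.00), and -0.05 with the offset. Dvl1 to Dvl3 differed by -0.10 (exact p = 0.900), and -0.39 with the offset. Dvl1 to Dvl2, with a like difference in GC content, differed by 0.60 with no overlap of the groups (exact p = 0.1), and by 0.31 with overlap with the offset. Wnt7b to Wnt7a differed by 0.35 (exact p = 0.300), and by -0.28 with the offset. The 10 pairs compared share genes and libraries, and after adjustment for 10 pairs no p could be under the threshold of 0.05.

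**Figure D4:**
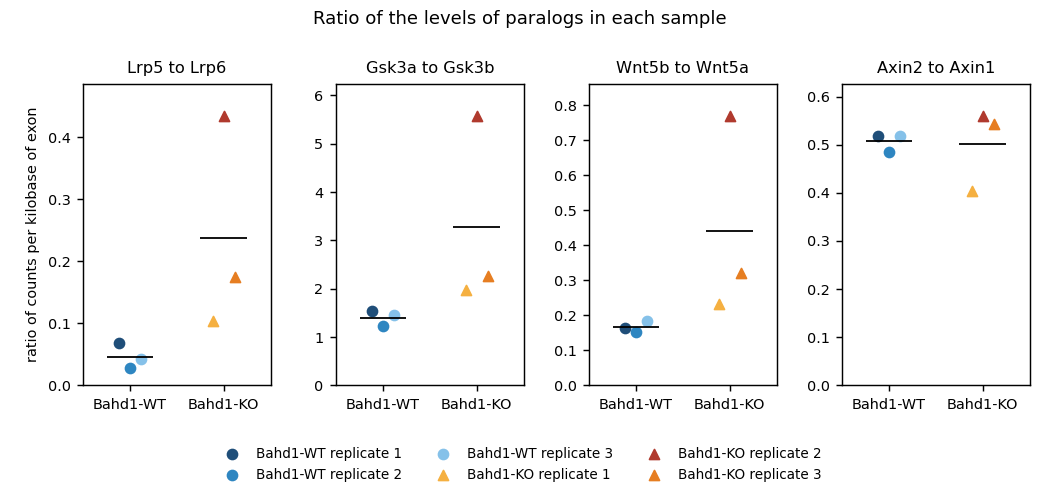
Ratio of counts per kilobase of exon (y axis, linear and starting at 0) between paralogs in each mouse, with 1 panel per pair; circles are Bahd1-WT mice, triangles Bahd1-KO mice and horizontal lines group means. Lrp5 to Lrp6, Gsk3a to Gsk3b and Wnt5b to Wnt5a show all Bahd1-KO mice above all Bahd1-WT mice with Bahd1-KO replicate 2 highest, while Axin2 to Axin1 overlaps.

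The base composition of the promoters was set beside that of the transcripts. RefSeq starts on GRCm38.p6 were given for 32 of the 48 genes, with 36 windows of 300 bases (250 before the start and 50 after it). The windows had a median GC content of 70.3% and a median of 28 CpG dinucleotides, against 52.7% and 7 over all windows of that length. Across the 30 tested genes with a window, Spearman's rho with the log2 FC was 0.293 for promoter GC content and 0.675 for transcript GC content, as a description over genes that share libraries, and the difference between these values was not tested. For a gene with several windows, only the one at the lowest coordinate was used. For Wnt5b, on the minus strand, that window had a GC content of 55%, and the window of its start furthest upstream had 78%. Other choices of window were not tried. Fzd4, picked by hand as an example, shows both properties apart: its transcripts have a GC content of 47.0% and its promoter is GC-rich, like that of Wnt4. Fzd5 was GC-rich in both, at 75.7% in the promoter and 55.5% in the transcripts, with a log2 FC of -0.28. The 250 bases before the starts of Wnt4 and Fzd4 are printed with CpG dinucleotides in capitals.
Wnt4, chr4:137277385-137277634, plus strand: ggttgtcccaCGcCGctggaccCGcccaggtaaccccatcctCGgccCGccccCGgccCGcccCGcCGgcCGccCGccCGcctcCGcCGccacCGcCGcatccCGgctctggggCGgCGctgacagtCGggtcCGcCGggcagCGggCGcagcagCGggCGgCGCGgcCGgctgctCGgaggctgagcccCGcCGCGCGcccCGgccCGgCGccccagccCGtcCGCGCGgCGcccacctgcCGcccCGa
Fzd4, chr7:89404116-89404365, plus strand: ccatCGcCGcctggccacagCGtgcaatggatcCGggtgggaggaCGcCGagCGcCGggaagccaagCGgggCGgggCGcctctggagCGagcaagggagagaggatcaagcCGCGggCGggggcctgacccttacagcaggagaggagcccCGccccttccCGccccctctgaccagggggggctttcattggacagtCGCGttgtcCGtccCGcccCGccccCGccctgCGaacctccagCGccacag
The stretch of Wnt4 held 44 CpG dinucleotides at a GC content of 85.2%, and that of Fzd4 held 25 at 72.8%. The TCF/LEF motif, searched as CTTTGAT or CTTTGAA on both strands, was found in 4 of the 36 windows (11.1%), those of Dkk1, Gsk3a, Wnt11 and Wnt5b, and in 8.65% of the 32851 windows of all genes.

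The wider pathway was described with a list of 74 further genes, all of which were tested. As with the core genes, 0 were called; 30 were higher (19.9% of all genes) and 4 lower (12% of all genes) at an unadjusted p under 0.05, and 19 were higher (14.7% of all genes) and 1 lower (4.77% of all genes) at an adjusted p under 0.1. Their median log2 FC was 0.29, and -0.02 with the offset, where 10 were higher (9.63% of all genes) and 11 lower (11.1% of all genes) at an unadjusted p under 0.05. Regulators at the membrane had the highest median with the offset, 0.60 over 6 genes, of which 3 were then higher at an unadjusted p under 0.05 (9.63% of all genes). Of the 11 genes known as targets of beta-catenin, some of which also stand in the other lists, 6 were higher at an unadjusted p under 0.05 (Sp5, Ccnd1, Myc, Nkd1, Notum and Apcdd1; 19.9% of all genes were), with a median log2 FC of 0.56, and with the offset 4 were (Nkd1, Lef1, Notum and Apcdd1; 9.63% of all genes were), with a median of 0.06. Without Bahd1-KO replicate 2, and without the offset, 3 of the 11 targets were higher (15.5% of all genes), with a median of 0.35. Axin2, which is also such a target, was lower with the offset. Of the 11 planar polarity genes, 3 were higher (Celsr1, Celsr2 and Celsr3; 19.9% of all genes) and 1 lower (Prickle2; 12% of all genes) at an unadjusted p under 0.05, with a median log2 FC of 0.27. With the offset 0 were higher (9.63% of all genes) and 2 lower (Vangl2 and Prickle2; 11.1% of all genes), with a median of -0.11.

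The 6 further genes with the smallest p were Tmem198, Notum, Dact2, Ror2, Kremen2 and Kremen1, and in all of them every Bahd1-KO mouse was above every Bahd1-WT mouse. Tmem198, a membrane protein that promotes phosphorylation of Lrp6, was at 3.34, 1.83 and 2.55 CPM in the Bahd1-WT mice and 8.0, 31.7 and 11.0 CPM in the Bahd1-KO mice. Its log2 FC was 2.72 ± 0.52 (adjusted p = 0.0634), and with the offset, at 4.68, 3.77 and 4.47 CPM against 8.15, 8.86 and 7.68 CPM, it was 0.93 ± 0.14 (adjusted p = 0.0759). Dact2, a Dishevelled-binding protein, was at 4.37, 2.40 and 3.5 CPM against 7.88, 31.5 and 11.9 CPM, with a log2 FC of 2.32 ± 0.50, and 0.85 ± 0.17 with the offset (adjusted p = 0.0634 and 0.0759). Both kept groups that did not overlap at the 2 settings, and without Bahd1-KO replicate 2 the log2 FC was 1.89 for Tmem198 and 1.53 for Dact2, without the offset.

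Notum, an enzyme that removes the lipid from Wnt proteins, was at 0.393, 0.211 and 0.218 CPM in the Bahd1-WT mice and 0.552, 2.08 and 1.49 CPM in the Bahd1-KO mice (log2 FC 2.32 ± 0.49, and 1.02 ± 0.31 with the offset; adjusted p = 0.0634 and 0.113). The Dkk co-receptors Kremen1 and Kremen2 were both higher at an unadjusted p under 0.05. Kremen1 was at 10, 6.87 and 8.13 CPM against 12.3, 21.2 and 15.7 CPM, with a log2 FC of 0.98 ± 0.26, and 0.70 ± 0.15 with the offset (adjusted p = 0.0641 and 0.0759). Kremen2 was at 0.306, 0.194 and 0.286 CPM against 0.758, 1.65 and 0.570 CPM, with a log2 FC of 1.92 ± 0.44, and 0.51 ± 0.29 with the offset (adjusted p = 0.0634 and 0.362), and one of 1.31 without Bahd1-KO replicate 2. Ror2, a receptor of Wnt5a, was at 0.350, 0.259 and 0.314 CPM against 0.667, 1.30 and 0.743 CPM, with a log2 FC of 1.56 ± 0.34, and 0.44 ± 0.25 with the offset (adjusted p = 0.0634 and 0.358).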

How the data were processed

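RNA-seq counts per gene came from 1 hemisphere of each of 3 Bahd1-WT and 3 Bahd1-KO mice, grouped by the genotype and title labels. Per the labels and the paper, the authors trimmed reads with Cutadapt (1.11), aligned them to GRCm38 (Ensembl annotation) and counted them on exons by strand with featureCounts (1.4.6-p3); the labels name STAR (2.5.0a) as aligner and the supplementary methods also Tophat2. The deposited values are raw counts, 1 column per mouse, without normalization or filter. The labels give separate samples of each genotype, and p-values measure the spread between these.

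Genes with at least 10 counts over the 6 samples were kept (23975). The test was edgeR (4.0.16, R 4.3.3) with TMM normalization, a quasi-likelihood fit on genotype alone and Benjamini-Hochberg adjustment over all genes kept; SE is the log2 FC over the root of F. CPM uses TMM library sizes, and RPKM divides it by the kilobases of the exon union. GC content is over all GENCODE M21 transcripts of a gene. The offset was a natural spline on GC content (5 degrees of freedom) and log2 length (3), fitted per library to genes with a mean log2 CPM above 1. Plots and per-library deviations used a pseudocount of 0.05 CPM. Floors of 3 counts cover counting error only. Scripts were tested on simulated data. Alternatives were other normalizations, filters, DESeq2 (1.42.0), left-out samples and a replicate block.

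The genes, the lists and the rule for the genes given sample by sample (the 16 with the smallest p, the most abundant of each role, Axin2, Ctnnb1, Gsk3b, those called under an alternative, and 6 further pathway genes) were chosen with earlier results of these data known. The embryonic samples and RT-qPCR were not analysed here.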

Additional observations from a re-analysis of the deposited data

How the results depend on the processing

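At the study's thresholds the count of Wnt pathway genes called was 0 with edgeR's quasi-likelihood test, and 20 had an unadjusted p under 0.05 (17 higher and 3 lower, against 4760 and 2867 of all 23975 genes). The count called was 6 with total counts in place of TMM, 8 with no filter beyond 1 count, 8 with DESeq2 with its prior, 8 without the prior, 8 with edgeR's likelihood-ratio test, and 1 with DESeq2 and the offset. With DESeq2 and its prior 19 had an unadjusted p under 0.05 (18 higher and 1 lower, against 4733 and 2211 of all 23975 genes). Leaving out single samples gave 0 to 14 called genes, 14 without Bahd1-KO replicate 1. The count at an unadjusted p under 0.05 was 11 with DESeq2 and the offset (3 higher and 8 lower, against 2342 and 2137 of all 23975 genes). It was 10 to 23 with a sample left out: 10 without Bahd1-WT replicate 2 (all higher, against 3164 of all 23427 genes), 12 without Bahd1-WT replicate 3 (11 higher and 1 lower, against 3740 and 1960 of 23436), 13 without Bahd1-KO replicate 2 (12 higher and 1 lower, against 3561 and 2153 of 23038) and 23 without Bahd1-KO replicate 1 (21 higher and 2 lower, against 5848 and 4396 of 23690). The median log2 FC, 0.48, was 0.19 to 0.62 with a sample left out, lowest without Bahd1-KO replicate 2; it was -0.05 with the offset, -0.05 with offset and replicate block, and -0.03 with DESeq2 and the offset. For the 74 further genes the count called was 10 with total counts (7.88% of all genes higher), 14 with no filter beyond 1 count (7.58%), 14 with DESeq2 with its prior (9.61%), 16 without the prior (10.5%) and 14 with the likelihood-ratio test (10.8%), and 0 to 18 with a sample left out, 18 without Bahd1-KO replicate 1 (14.6%). Their median of 0.29 (0.23 to 0.45 with a sample left out) was -0.02 with the offset, -0.03 with offset and replicate block and -0.00 with DESeq2 and the offset. The cause of these differences was not tested.

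Deviations from the group mean correlated at -0.644, -0.656 and -0.144 between same-numbered mice of the 2 genotypes. Between differently numbered mice the correlations were -0.093 to 0.629. The deviations within a group are not independent of each other, so these values cannot tell whether the numbers pair the samples. With the replicate block 13 genes had an unadjusted p under 0.05 (12 higher and 1 lower, against 3629 and 1602 of all 23975 genes) and 0 were called, and with block and offset 11 (3 higher and 8 lower, against 1729 and 2000 of all genes) and 0.

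Of 666 values of 37 single genes under alternatives, 538 kept direction and side of the threshold, 84 passed it newly and 44 changed sign. With the offset, the offset and block, and DESeq2 with the offset, in this order, the log2 FC was -1.15, -1.15 and -0.88 for Wnt6, -0.11, -0.11 and -0.08 for Wnt7b, -1.20, -1.20 and -1.01 for Wnt10a, -0.13, -0.07 and -0.05 for Wnt11, -0.32, -0.33 and -0.27 for Fzd1, 0.02, 0.02 and 0.04 for Fzd3, -0.47, -0.50 and -0.38 for Sfrp5, -0.20, -0.21 and -0.16 for Dvl2, -0.21, -0.21 and -0.18 for Axin1, -0.25, -0.26 and -0.22 for Axin2, -0.46, -0.46 and -0.41 for Gsk3a, and 0.07, 0.06 and 0.09 for Gsk3b. With the offset alone and with the block it was -0.00 and -0.01 for Wnt5b and -0.02 and -0.02 for Ctnnb1, and with the offset alone -0.00 for Wnt9a. Ctnnb1 was at -0.09 with upper-quartile factors. Dkk3 was at 0.02 with total counts, and at -0.19 to 0.03 with a sample left out, 0.03 without Bahd1-WT replicate 3. The 3 mice per genotype limit all tests, and Wnt1, Wnt3a, Wnt8a, Dkk1 and Dkk4 were at or near the limit that the depth can show.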

Other observations

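Lgr5 and Lgr6, receptors of R-spondins, varied between mice more than between genotypes. Lgr5 was at 23.2, 10.4 and 10.1 CPM in Bahd1-WT replicates 1, 2 and 3 and at 18.9, 10.8 and 9.85 CPM in Bahd1-KO replicates 1, 2 and 3. For Lgr6 the values were 21.6, 9.47 and 6.39 CPM against 20.6, 12 and 8.81 CPM. Both were highest in replicate 1 of each genotype. The summed level of 4 olfactory bulb markers was 37.4, 11.9 and 11.6 CPM against 44.5, 40.5 and 16.9 CPM, and its part in the levels of Lgr5 and Lgr6 was not tested. The log2 FC was -0.15 ± 0.38 for Lgr5 and 0.14 ± 0.46 for Lgr6 (SE, n = 3 per genotype). Both genes were chosen after their values were seen.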
